A study of Mus musculus with 4 samples.

Results

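Translation initiation factors are the proteins that bring the initiator tRNA, the mRNA cap and the small ribosomal subunit together before a ribosome starts to read. The genes described here are the rows of the gene table whose symbol begins with Eif and a factor number from 1 to 6, without the Eif2ak genes, which encode kinases of eIF2 and not subunits. This choice gave 51 genes of 15768, of which 5 belong to eIF1, 11 to eIF2, 14 to eIF3, 16 to eIF4, 4 to eIF5 and 1 to eIF6, and it left out 4 Eif2ak genes. The numbers follow the names and not always the complexes, so the group also holds regulators that bind a factor, such as Eif4ebp1, and proteins now known mainly for elongation, such as Eif5a.

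JoMa1.3 is a mouse neural crest line, kept growing through a Myc protein that can be switched by tamoxifen; all libraries came from these cells, whose genotype is labelled WT. Cultures received either a non-targeting pool of siRNAs (control siRNA) or a pool against Stk11, the mouse name of Lkb1 (Lkb1 siRNA), at 60 nM, and progenitors were analysed after 72 h. Each treatment had 2 libraries, 1 in batch 1 and 1 in batch 2; the labels name a pair of transfection reagents without saying which culture received which, and do not say what a batch shared. The study's purpose was to find what acts downstream when Lkb1 is lost.

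Library totals ranged from 17426719 to 19324675 counts. Stk11 was at 52.7 and 52.1 FPKM (fragments per length of transcript, scaled to library depth) with control siRNA and at 36.3 and 36.9 FPKM with Lkb1 siRNA, so the knockdown was partial (log2 fold change -0.55, SE 0.0659; adjusted p = 0.0378 in edgeR). Of 15 neural crest markers, 8 were at 1 FPKM or above, among them Snai2, Twist1, Pax3 and Sox9, while Ednrb was at 0 in 3 libraries and at 0.02 FPKM in the other; Sox10, Foxd3 and Ret have no row in the gene table used here. Of the other cell types looked at, smooth muscle markers had the highest sum: 2 of 4 were at 1 FPKM or above, their sum was 409 and 382 FPKM with control siRNA and 327 and 307 FPKM with Lkb1 siRNA, and Myh11 was under 0.1 FPKM in every library. Their part in the values below was not tested, and in bulk RNA fewer cells of a type and less RNA per cell cannot be told apart.

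Initiation begins when eIF2, loaded with GTP, carries the initiator tRNA to the small subunit, helped by eIF1, eIF1A, eIF3 and eIF5. The eIF4F complex, made of the cap-binding protein eIF4E, the scaffold eIF4G and the helicase eIF4A, brings in the mRNA, and eIF5B then joins the large subunit. Phosphorylation of eIF2 by the Eif2ak kinases blocks its recharging by the exchange factor eIF2B, and the 4E-BP proteins hold eIF4E back until mTORC1 phosphorylates them. LKB1 activates AMPK, a kinase that restrains mTORC1. These controls act on proteins, whereas the data here are mRNA levels.

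Myc with its partner Max binds the E-box CACGTG, so the promoter windows of the members were searched for it. RefSeq promoter entries (250 bases before to 50 after the start, GRCm38.p6) matched 40 of the 51 genes, and 10 of these 40 (25.0%) held CACGTG, which reads alike on both strands, against 8.09% of the 27025 genes with an entry and 11.8% of the 9761 of these that were tested for a change. The 10 were Eif1b, Eif3a, Eif3f, Eif3k, Eif4a1, Eif4e, Eif4g1, Eif4h, Eif5a and Eif5a2. Each of the 3 classical parts of eIF4F, the cap-binding protein, the scaffold and the helicase, had such a gene, and their windows are shown for that reason, with the E-box in capitals and 12 bases on either side.
Eif4e, chr3:138527028-138527057, plus strand: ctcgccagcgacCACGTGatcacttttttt
Eif4e, chr3:138527192-138527221, plus strand: ggacacgtccgtCACGTGggcaggagccgg
Eif4g1, chr16:20672661-20672690, plus strand: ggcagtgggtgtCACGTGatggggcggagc
Eif4g1, chr16:20672730-20672759, plus strand: ctctgcgccggtCACGTGgggcgctggctg
Eif4a1, chr11:69672595-69672624, minus strand: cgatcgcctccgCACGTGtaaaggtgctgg
Counted from the start as base 1, the E-boxes began at -228 and -64 in Eif4e, at -54 and 16 in Eif4g1 and at -189 in Eif4a1. A gene was counted when any of its windows held the letters, and some genes have several windows. For the elements that ATF4 and CREB are known to bind, both strands were searched. TGATGNAA was in 1 of the 40 genes, Eif2s3x (2.50%, against 4.51% of all genes with an entry and 2.64% of those tested). TTGCATCA and TGACGTCA were in 0 of 40 (1.03% and 2.03% of all genes with an entry, 0.707% and 3.53% of those tested). A match describes letters in a window and does not show binding.

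Mean levels within the family spanned from 0.0100 FPKM (Eif4a3l1) to 843 FPKM (Eif5a). Eif5a was at 917 and 784 FPKM with control siRNA and 874 and 799 FPKM with Lkb1 siRNA, in the order of batch 1 and batch 2 that all lists below keep. It encodes the protein that carries hypusine and helps ribosomes over difficult peptide bonds. Summed over the 51 genes, the level was 7468 and 7046 FPKM with control siRNA and 7246 and 6998 FPKM with Lkb1 siRNA, which was 1.08 to 1.13% of all FPKM in a library. In both treatments the sum was higher in batch 1, and the treatments overlapped.

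**Figure D1:**
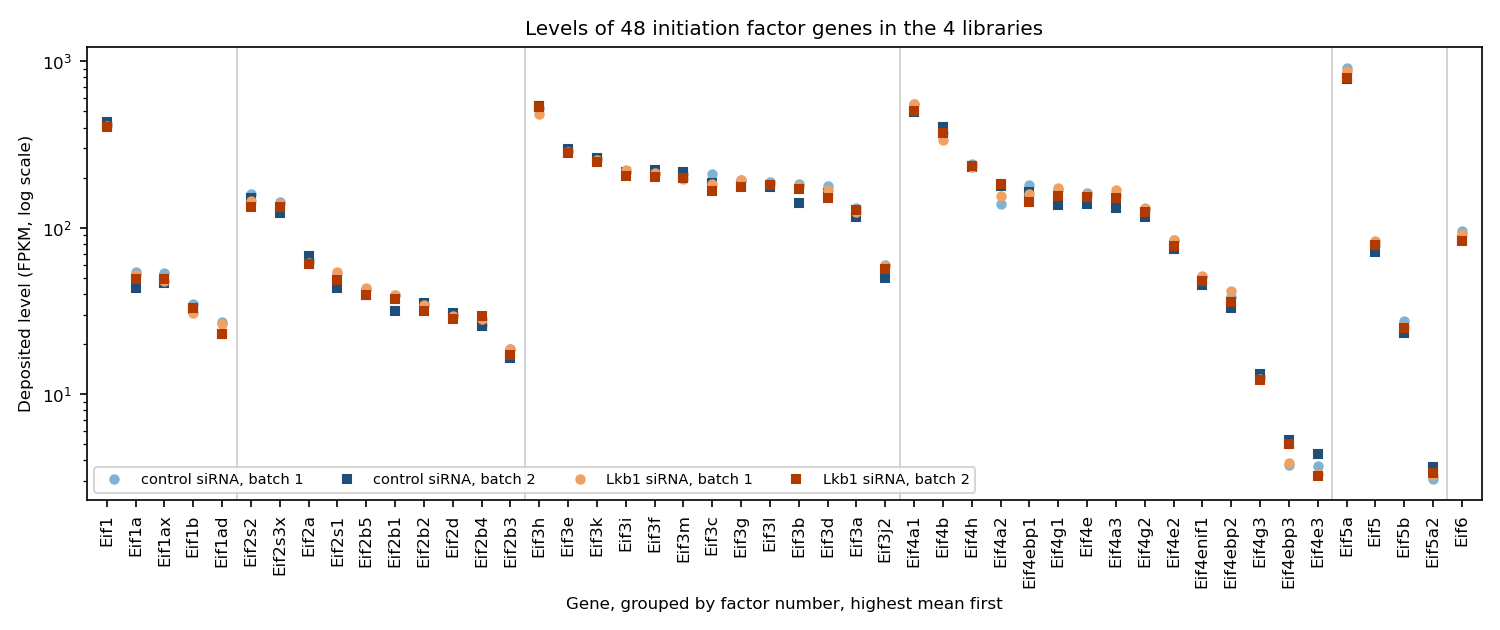
Deposited FPKM on a log axis for the 48 initiation factor genes that passed the expression filter, grouped by factor number and ordered by mean; each point is 1 library (circles batch 1, squares batch 2, blue control siRNA, orange Lkb1 siRNA). Within a gene the 4 points lie close together, while genes of 1 factor differ by up to more than 100-fold, as Eif5a (843 FPKM on average) and Eif5a2 (3.34 FPKM) do.

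Among the eIF1 genes, Eif1, the guardian of start codon choice, had a mean of 417 FPKM (range 404 to 434) and 71.4 to 75.0% of the FPKM of the 5 genes. Eif1a and Eif1ax, which encode the tRNA-positioning factor eIF1A, followed at 49.7 and 49.0 FPKM with overlapping ranges. Eif1b, the paralogue of Eif1, was at 32.8 FPKM (30.8 to 34.8), below both and apart from them, and Eif1ad, an eIF1A-like protein, was lowest at 24.9 FPKM (22.9 to 27.0). The open reading frames of Eif1 and Eif1b are both 342 bases long and share 81.3% of their bases. The counts of Eif1 were not whole numbers in each of the 4 libraries, while those of Eif1b were whole. How well reads tell the genes apart was not tested.

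The 3 subunits of eIF2 were not at equal levels: Eif2s2 (the beta subunit) had a mean of 147 FPKM and Eif2s3x (gamma) of 134 FPKM with overlapping ranges, whereas Eif2s1 (alpha, the subunit that the kinases phosphorylate) was at 49.7 FPKM, apart from both. The Y-linked gamma copy Eif2s3y was at 0.04 FPKM or less in each library, although its reading frame shares 86.3% of its bases with Eif2s3x. The 5 subunits of eIF2B ran from Eif2b5, the catalytic subunit, at 41.4 FPKM (39.3 to 43.6) over Eif2b1 (36.9), Eif2b2 (33.9) and Eif2b4 (27.3) to Eif2b3 at 17.8 FPKM (16.5 to 18.8). Eif2b5 overlapped Eif2b1 and Eif2b1 overlapped Eif2b2, and Eif2b3 lay apart below the rest. Eif2a, a tRNA-binding protein unrelated to the alpha subunit, was at 63.4 FPKM, and Eif2d, which acts in reinitiation and recycling, at 29.7 FPKM.

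Of the 13 detected eIF3 genes, 10 had means between 165 and 287 FPKM. Eif3h stood above them at 518 FPKM (484 to 538), and Eif3a, the largest subunit, stood below at 125 FPKM (116 to 131). The 8 genes in the middle from Eif3i (214 FPKM) to Eif3d (165 FPKM) each overlapped the next in order. Eif3j2 was lowest of the detected at 56.1 FPKM, while its copy Eif3j1 was listed at 0.2, 0, 0.27 and 0.11 FPKM. The reading frames of this pair do not differ over 786 aligned bases, and both have counts that are not whole numbers, so the split of reads between them is uncertain.

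The helicase gene Eif4a1 led at 526 FPKM, followed by Eif4b (371 FPKM) and Eif4h (235 FPKM), whose products stimulate the helicase, and each was apart from the next. The second helicase gene, Eif4a2, Eif4ebp1, the scaffold gene Eif4g1, the cap-binding gene Eif4e and Eif4a3, a helicase of the exon junction complex, lay together between 152 and 164 FPKM, each with a range that overlapped its neighbour in the order. Eif4g2, a relative of eIF4G that does not bind eIF4E, was at 125 FPKM, with a highest value that reached the lowest of Eif4a3; Eif4e2, a cap-binding repressor, was at 80.2 FPKM, Eif4enif1, the eIF4E transporter, at 48.8 FPKM and Eif4ebp2 at 37.1 FPKM. Eif4g3, the second scaffold, was at 12.7 FPKM, and Eif4ebp3 (4.48 FPKM) and Eif4e3 (3.64 FPKM) were lowest among the detected, with overlapping ranges. Eif4a3l1 was listed at 0.04 FPKM in 1 library and at 0 in the other 3.

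In the eIF5 group, Eif5a had 88.2 to 89.3% of the summed FPKM. Eif5, the GTPase activator of eIF2, was at 78.3 FPKM (71.9 to 83.5), Eif5b, the GTPase of subunit joining, at 25.3 FPKM (23.3 to 27.7), and Eif5a2, the second hypusine protein, at 3.34 FPKM (3.08 to 3.65). No range overlapped the next. Eif6, which keeps the large subunit from joining too early, was at 95.3, 83.9, 91.7 and 83.7 FPKM.

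After Lkb1 siRNA no initiation factor gene passed the test. Of the 51 genes, 48 had enough counts; Eif2s3y, Eif3j1 and Eif4a3l1 did not. The test was edgeR's quasi-likelihood test over 12222 genes with an adjusted p under 0.05, by which 0.0327% of all genes tested were higher and 0.0491% were lower, and 0 of 48 initiation factor genes passed in either direction. DESeq2 and limma called 0 of the 48 as well. At an unadjusted p under 0.05, 0 were higher (5.61% of all genes) and 4 were lower (5.53% of all genes), namely Eif2s2, Eif3c, Eif3m and Eif4ebp1. With the batch as a replicate block, which compares each Lkb1 siRNA library with the control library of its own batch, 7 of 48 passed as lower (14.6%, beside 6.99% of all genes tested) and 0 as higher (beside 6.59%).

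Expression level bears on which genes can pass, and 41 of the 48 had a mean of at least 50 CPM (counts scaled to library size). All 7 genes that passed with the block were among these 41, where the share of all genes lower with the block was 11.1%. When the trend of fold change with transcript length was removed in the same fit, 4 of the 7 still passed as lower (Eif2s2, Eif3c, Eif4b and Eif4ebp1), Eif2a, Eif3d and Eif3m no longer did (adjusted p = 0.0549, 0.0909 and 0.126), and Eif4a3 passed as higher (adjusted p = 0.0332).

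The median log2 fold change of the 48 genes was -0.0572, beside 0.000494 for all genes tested, and the single values ran from -0.32 (Eif4e3) to 0.10 (Eif4a3 and Eif2b4). In 32 of 48 the Lkb1 siRNA mean was lower and in 16 higher; 26 of 48 (54.2%) were lower within both batches, beside 33.4% of all genes, and 6 of 48 (12.5%) were higher within both, beside 33.8%. The 2 Lkb1 siRNA libraries lay below both control libraries in 17 of 48 genes (35.4%, beside 21.4% of all genes tested) and above both in 1, Eif2b4 (2.08%, beside 21.2%). In FPKM the median log2 fold change over all genes was slightly positive. On that scale both Lkb1 siRNA libraries lay below both control libraries in 12 of 48 genes (25.0%, beside 14.5% of all genes). They lay above both in 2 of 48 (4.17%, beside 27.7%). In log2 CPM, the median of the 48 genes was -0.0758 in batch 1 and -0.0110 in batch 2.

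**Figure D2:**
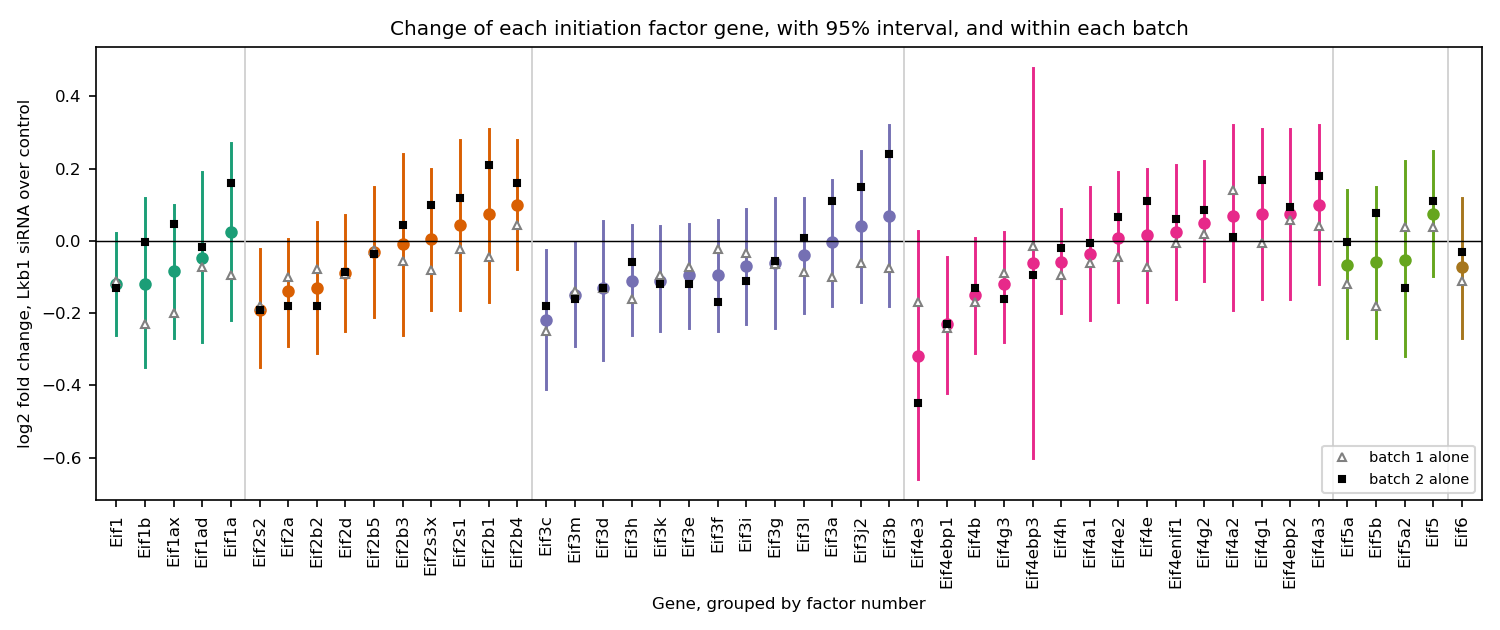
log2 fold change of Lkb1 siRNA over control siRNA for 48 initiation factor genes (filled circles, coloured by factor number) with the 95% interval of edgeR's fit as lines; open triangles and black squares give the change within batch 1 and within batch 2. Most intervals cross 0, those of Eif2s2, Eif3c, Eif3m and Eif4ebp1 do not, and the eIF3 genes lie mostly below 0.

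The middle of the family moved with single libraries, as the plot of fold changes with each library left out shows. Without the control library of batch 1 the median log2 fold change was 0.0280, and without that of batch 2 it was -0.107; without the Lkb1 siRNA library of batch 1 it was -0.0686, and without that of batch 2 -0.0120. When either batch 2 library was left out, Eif3j1 also passed the expression filter and these medians cover 49 genes. Without the control library of batch 2, Eif3c and Eif4ebp1 had log2 fold changes of -0.31 and -0.32. Without the control library of batch 1 their log2 fold changes were -0.11 and -0.15. With a library left out, Eif3c ran from -0.31 to -0.11, Eif4ebp1 from -0.32 to -0.15, Eif3d from -0.22 to -0.047, Eif4b from -0.21 (without the Lkb1 siRNA library of batch 2) to -0.084 (without that of batch 1) and Eif2s2 from -0.24 to -0.13, while Eif2a and Eif3m stayed between -0.17 and -0.11. Eif3d was smallest, at -0.047 and -0.050, without the control library of batch 1 and without the Lkb1 siRNA library of batch 2. Of the 48 genes, 19 were lower with all libraries and with each left out in turn, Eif2b4 was higher throughout, and 28 changed sign. The same count over all genes tested was not made, so these numbers only describe the family. The 19 hold each of the 7 genes that passed with the block, but these fits reuse the same libraries and give no separate support.

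**Figure D3:**
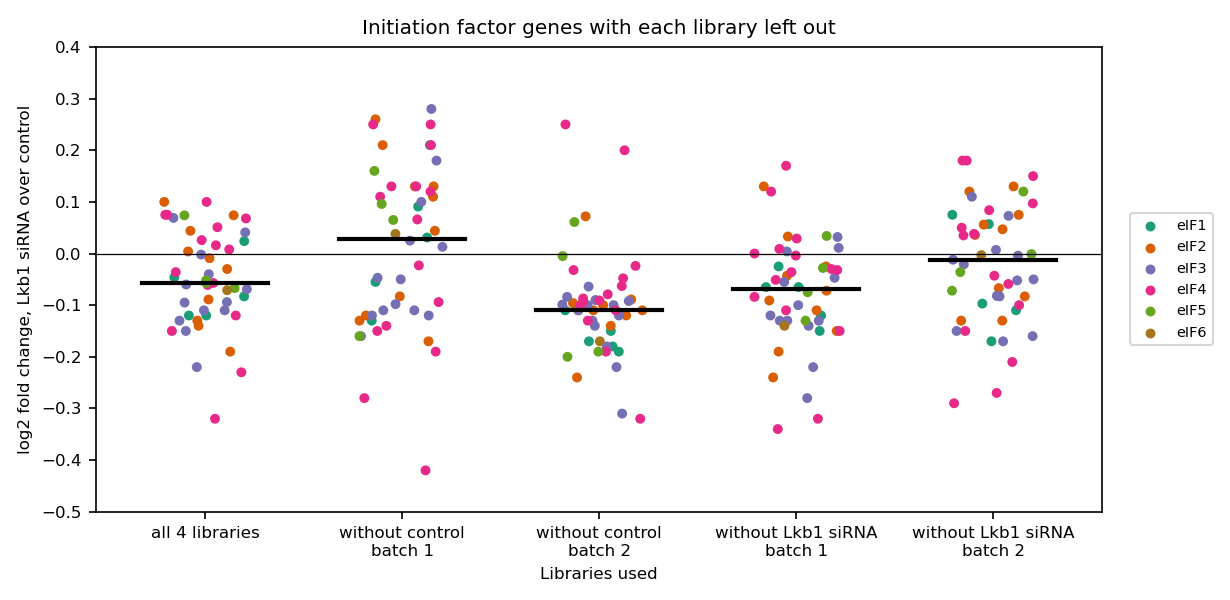
log2 fold change of Lkb1 siRNA over control siRNA for each initiation factor gene (points, coloured by factor number and spread sideways for legibility) with all 4 libraries and with each library left out; black lines are medians. Eif3j1, which is tested only when a batch 2 library is left out, lies above the axis at 1.39 in the last column. The median lies above 0 only without the control library of batch 1.

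Among the eIF1 genes, 4 of 5 were lower, with a median of -0.0827, and none passed with or without the block. Eif1 (gene ID 20918) was at 418 and 423 CPM with control siRNA and 388 and 385 CPM with Lkb1 siRNA. Both Lkb1 siRNA libraries were the lower ones, with groups that did not overlap (log2 fold change -0.12, SE 0.0632; adjusted p = 0.511 in edgeR, 0.0695 with the block). Its paralogue Eif1b (68969) was at 22.2, 20.4, 18.9 and 20.3 CPM, with a log2 fold change of -0.23 in batch 1 and of -0.004 in batch 2. Eif1a, at 144, 113, 135 and 126 CPM, went opposite ways in the batches (-0.095 and 0.16). Eif1ax and Eif1ad had overlapping groups and log2 fold changes of -0.083 and -0.046.

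The eIF2 genes had a median of -0.0193, with 6 of 10 lower, and 2 of 10 passed as lower with the block (6.99% of all genes). Eif2s2 (67204), the beta subunit, which binds eIF5 and eIF2B, was at 361 and 336 CPM with control siRNA and 318 and 294 CPM with Lkb1 siRNA. The groups did not overlap, and each batch gave about the same difference, -0.18 and -0.19 (log2 fold change -0.19, SE 0.0731; adjusted p = 0.388 in edgeR, 0.00220 with the block). Of the other detected subunits, Eif2s1 had a log2 fold change of 0.044 (95% interval -0.19 to 0.28) and Eif2s3x of 0.004 (-0.19 to 0.20), each with overlapping groups. Eif2a (229317) was at 131, 136, 122 and 120.1 CPM, lower in both Lkb1 siRNA libraries (log2 fold change -0.14, SE 0.0656; adjusted p = 0.458 in edgeR, 0.0355 with the block).

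The eIF2B subunits went both ways. Eif2b4, the delta subunit, was at 39.7, 38.0, 40.9 and 42.6 CPM and was the single member whose Lkb1 siRNA libraries both lay above the control libraries (log2 fold change 0.10, SE 0.0802; adjusted p = 0.662 in edgeR). Eif2b2, the beta subunit, was at 46.8, 46.2, 44.3 and 40.7 CPM, below the control libraries (log2 fold change -0.13, edgeR adjusted p = 0.577). Eif2b1, Eif2b3 and Eif2b5 had overlapping groups and log2 fold changes of 0.074, -0.009 and -0.030. Eif2d was at 55.2, 54.7, 51.8 and 51.5 CPM (log2 fold change -0.089; adjusted p = 0.676 in edgeR).

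With all libraries and no block, eIF3 had the lowest median among the factors with 5 or more genes, -0.0944. Of its genes 11 of 13 were lower, and 9 of 13 were lower within both batches (33.4% of all genes). In 6 of 13 the groups lay apart below the controls (21.4%), and 3 of 13 passed as lower with the block (6.99%). The ranking did not hold with the block and the length trend removed. There the middle gene of eIF3 was Eif3k at -0.047, and that of eIF1 was Eif1b at -0.061. Eif3c (56347), a core subunit that contacts eIF1 and eIF5, was at 557 and 484 CPM with control siRNA and 469.5 and 427 CPM with Lkb1 siRNA. Both Lkb1 siRNA libraries were below both controls (log2 fold change -0.22, SE 0.0844; adjusted p = 0.388 in edgeR, 0.000206 with the block). Eif3m (98221), at 200.1, 204, 181 and 183 CPM, had tight groups that did not overlap (log2 fold change -0.15, SE 0.0645; adjusted p = 0.436 in edgeR, 0.0217 with the block). Eif3d (55944), the subunit that can bind the cap of some mRNAs, was at 297, 264, 270.3 and 240.1 CPM. Here the groups overlapped, with the batch 2 library the lower one in each treatment, and each batch gave a log2 difference of -0.13 (SE 0.0849 without the block, edgeR adjusted p = 0.583; 0.0422 with the block).

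Mammalian eIF3 holds a ring of 8 subunits with PCI or MPN domains (Eif3a, c, e, f, h, k, l and m), to which the others attach. With all libraries and no block, the 8 ring genes had log2 fold changes from -0.22 (Eif3c) to -0.002 (Eif3a), with a median of -0.101. Eif3a was at 0.001 with the block, at 0.10 without the control library of batch 1 and at 0.004 without the Lkb1 siRNA library of batch 1, and Eif3l was at 0.025 without the control library of batch 1. The Lkb1 siRNA libraries lay below the controls in 6 of 8 in CPM (21.4% of all genes) and in 4 of 8 in FPKM (14.5%), where Eif3f and Eif3h overlapped. Eif3e, Eif3f, Eif3h and Eif3k had log2 fold changes of -0.095, -0.094, -0.11 and -0.11. These became -0.065, -0.063, -0.069 and -0.047 with the block and the length trend removed. With no block and the length trend kept, Eif3a and Eif3l had log2 fold changes of -0.002 and -0.040 and overlapping groups. The 5 other detected genes, Eif3b (0.069), Eif3d (-0.13), Eif3g (-0.060), Eif3i (-0.069) and Eif3j2 (0.041), had a median of -0.0602, 3 of them lower, and overlapping groups in each. This division was made after the values were seen, and the difference between the subgroups was not tested.

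The eIF4 genes had a median of 0.00760, with 7 of 15 lower, and 2 of 15 passed as lower with the block (6.99% of all genes), both of them regulators or helpers and not parts of eIF4F. Eif4ebp1 (13685), which encodes 4E-BP1, the repressor of eIF4E, was at 127 and 113 CPM with control siRNA and 108 and 96.4 CPM with Lkb1 siRNA. The groups did not overlap and the batches gave -0.24 and -0.23 (log2 fold change -0.23, SE 0.0844; adjusted p = 0.358 in edgeR, 0.000172 with the block). The related Eif4ebp2 was at 58.6, 49.2, 61.1 and 52.5 CPM with a log2 fold change of 0.075 (95% interval -0.16 to 0.31), and Eif4ebp3 had one of -0.061 at about 4 CPM. Eif4b (75705), an activator of the helicase, had the highest count of the family, at 1346, 1433, 1196 and 1309 CPM. Its groups were apart in CPM (log2 fold change -0.15, SE 0.0701; adjusted p = 0.466 in edgeR, 0.00725 with the block), whereas in FPKM, at 369.9, 401, 339 and 373, they overlapped.

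None of the parts of eIF4F passed, with or without the block. Eif4e was at 275, 235, 262 and 254 CPM, with a log2 fold change of 0.016 (95% interval -0.17 to 0.20). Eif4g1 was at 876, 699, 872 and 786 CPM, with one of 0.075 (-0.16 to 0.31), and Eif4a1 was at 904, 788, 866 and 784 CPM, with one of -0.036 (-0.22 to 0.15). In each the groups overlapped, and each interval includes -0.15. Eif4a2, Eif4e2, Eif4enif1 and Eif4g2 had overlapping groups too, with log2 fold changes of 0.068, 0.008, 0.026 and 0.051, as had Eif4a3, at 188, 155, 194 and 175 CPM (0.10, interval -0.12 to 0.32). Eif4e3, at 8.57, 10.1, 7.63 and 7.36 CPM, had the most negative log2 fold change of the family, -0.32, with the widest interval but that of Eif4ebp3 (-0.66 to 0.027; edgeR adjusted p = 0.483). Eif4g3 (83.2 ± 1.04 against 76.3 ± 1.73 CPM, SD, n = 2) and Eif4h (522 ± 17.1 against 502 ± 1.79 CPM) were lower in both Lkb1 siRNA libraries, at edgeR adjusted p = 0.523 and 0.784.

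Because 4E-BP1 titrates eIF4E, the ratio of the mRNAs was also formed. Eif4ebp1 over Eif4e in FPKM was 1.12 and 1.17 with control siRNA and 1.01 and 0.925 with Lkb1 siRNA. With the 3 4E-BP genes summed it was 1.38 and 1.44 against 1.29 and 1.19. Both ratios were lower in both Lkb1 siRNA libraries. Eif4e itself had a log2 fold change of 0.016, so the first ratio mostly restates the change of Eif4ebp1. How many other pairs of genes separate in this way was not counted. With 2 libraries against 2 an exact permutation test cannot go below p = 0.333, so the difference was not tested, and a ratio of mRNAs says nothing of the phosphorylated share of the protein.

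**Figure D4:**
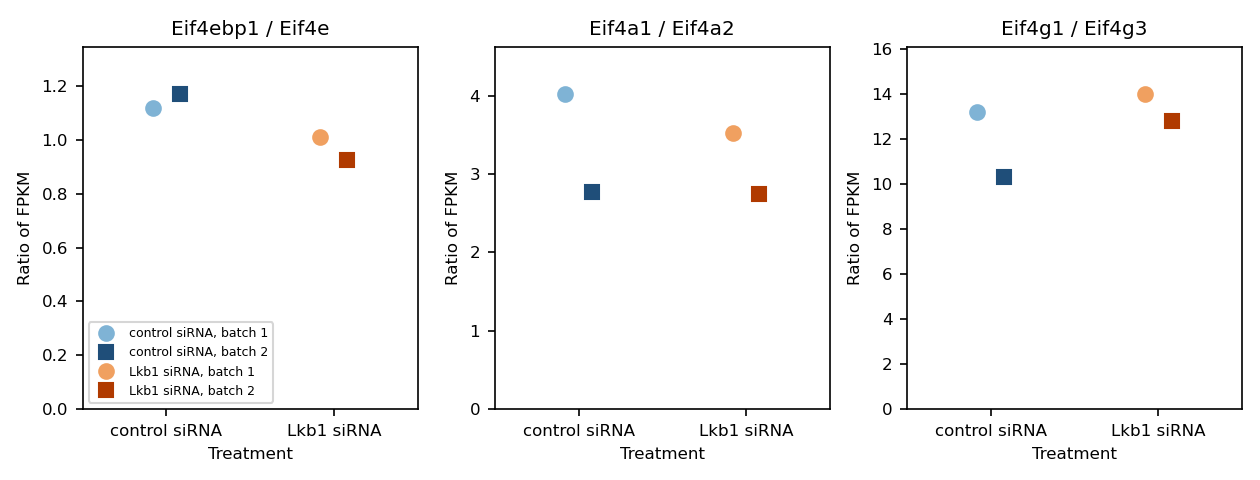
Ratios of FPKM in each library, by treatment (circles batch 1, squares batch 2), on axes from 0. Eif4ebp1 over Eif4e separates the treatments, from 1.12 and 1.17 to 1.01 and 0.925; Eif4a1 over Eif4a2 separates the batches, with 4.02 and 3.53 in batch 1 and 2.77 and 2.75 in batch 2; Eif4g1 over Eif4g3 overlaps between the treatments.

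Of the eIF5 genes, 3 of 4 were lower, with a median of -0.0545, and all 4 had overlapping groups. Eif5 (217869) was at 296, 265, 304 and 286 CPM (log2 fold change 0.074, 95% interval -0.098 to 0.25). Eif5a (276770) was at 992, 832, 910.1 and 831 CPM (-0.067, interval -0.27 to 0.14), with both batch 2 libraries lowest. Eif5b and Eif5a2 had log2 fold changes of -0.057 and -0.052. Eif6 (16418) was at 117, 101, 109 and 99.1 CPM (-0.071, interval -0.27 to 0.12), again lowest in batch 2.

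In the model that holds both batch and treatment, more of these genes passed between batches (23) than between treatments (7). Of the 48 genes, 22 passed edgeR's test as lower in batch 2 (45.8%, beside 6.62% of all genes tested) and 1 as higher (beside 6.30%). All 22 were among the 41 genes with at least 50 CPM, a range of expression in which 12.7% of all genes were lower in batch 2. The median log2 difference was -0.122, beside 0.00510 for all genes. It appeared within each treatment: batch 2 was lower in 36 of 48 genes (75.0%, beside 48.4% of all genes) between the control libraries and in 37 of 48 (77.1%, beside 49.9%) between the Lkb1 siRNA libraries, with medians of -0.157 and -0.0791. Without the treatment term no member passed.

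The 22 genes came from every factor. They included the 3 parts of eIF4F, with Eif4g1 at a log2 difference of -0.24 (SE 0.0451; adjusted p = 1.12e-05 in edgeR), Eif4a1 at -0.17 and Eif4e at -0.13. They also included Eif2s1 (-0.25, SE 0.0493; adjusted p = 3.87e-05 in edgeR), Eif3b (-0.23, edgeR adjusted p = 5.49e-05), Eif5a (-0.19, edgeR adjusted p = 0.000552) and Eif6 (-0.17, edgeR adjusted p = 0.0105). Eif3b went from 497 to 379 CPM between the control libraries and from 472 to 447 CPM between the Lkb1 siRNA libraries. The remaining ones were Eif1a, Eif1ad, Eif2b1, Eif2b5, Eif2s3x, Eif3c, Eif3d, Eif3g, Eif3j2, Eif4a3, Eif4ebp1, Eif4ebp2, Eif4enif1, Eif4g2 and Eif5b, at log2 differences between -0.24 and -0.12.

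The 1 gene higher in batch 2 was Eif4a2, at 300.1 and 381 CPM with control siRNA and 329.8 and 384 CPM with Lkb1 siRNA (log2 difference 0.28, SE 0.0482; adjusted p = 8.42e-07 in edgeR). Its paralogue Eif4a1, with 78.1% of aligned reading frame bases in common, went the other way, so that Eif4a1 over Eif4a2 in FPKM was 4.02 and 3.53 in batch 1 and 2.77 and 2.75 in batch 2. Of the 8 ring genes of eIF3, 1 passed as lower in batch 2 (Eif3c), with a median of -0.0201. Of the other 5 genes 4 passed, with a median of -0.169. Beside them, 6.62% of all genes tested were lower in batch 2, and 12.7% of those with at least 50 CPM. The division was made after the values were seen. The difference between these subgroups was not tested. Eif3e, Eif3f and Eif3m had log2 batch differences of 0.001, -0.009 and 0.024.

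**Figure D5:**
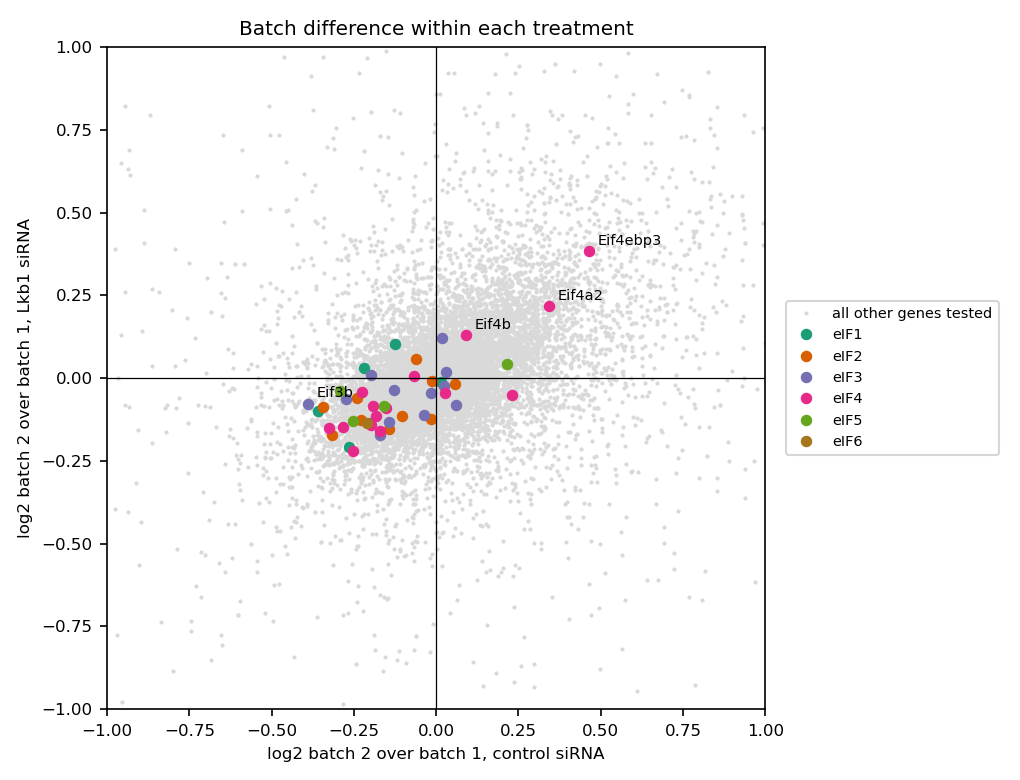
log2 difference of batch 2 over batch 1 between the control siRNA libraries (horizontal) and between the Lkb1 siRNA libraries (vertical) for initiation factor genes (coloured by factor number) and all other genes tested (grey; those beyond 1 on either axis are not drawn). Most initiation factor genes lie in the lower left, lower in batch 2 under both treatments, and Eif4a2, Eif4b and Eif4ebp3 lie in the upper right.

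All 10 genes with an E-box were tested; their median log2 fold change after Lkb1 siRNA was -0.0545, with 8 of 10 lower, and that of the 27 tested genes with a promoter entry and no E-box was -0.0460, with 16 of 27 lower. With the block 0 of 10 and 6 of 27 passed as lower after Lkb1 siRNA. Beside them, 6.99% of all genes tested were lower with the block, and 11.1% of those with at least 50 CPM. Between batches the medians were -0.0635 and -0.140, and 4 of 10 and 13 of 27 passed as lower in batch 2 (6.62% of all genes). The difference between these groups was not tested.

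At the level of transcripts, 176 rows belonged to the 51 genes, 135 of them among the 34279 transcripts tested, and 0 of 135 passed an adjusted p under 0.05 after Lkb1 siRNA (0% of all transcripts tested did). At an unadjusted p under 0.05, 5 of 135 passed in edgeR's test (3.70%, beside 6.75% of all transcripts tested), and 12 with the block (8.89%, beside 5.15%). For 28 genes the table lists 1 transcript. Both Eif4h transcripts are well covered, and they are given as an example chosen after the values were seen: NM_001312867 was at 94.1 and 88.7 FPKM with control siRNA and 79.6 and 81.7 FPKM with Lkb1 siRNA (log2 fold change -0.23, SE 0.0624; adjusted p = 0.687 in edgeR), and NM_033561 was at 146, 145, 152 and 153 FPKM (0.023, SE 0.0457). The first therefore held 38.6 and 37.4% of the Eif4h counts in control libraries and 33.7 and 34.2% in Lkb1 siRNA libraries.

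Eif4e shows the limit of such values. Its predicted transcript XM_006500993 was estimated at 1555, 1742, 3794 and 243 counts and XM_036162887 at 3131, 2429, 473 and 4161, so that the leading one changed between the Lkb1 siRNA libraries, while the gene as a whole stayed between 4538 and 5038 counts. The tests of transcripts take no account of this uncertainty in assigning reads. Eif4g1 has 16 transcripts in the table, and the most abundant held 15.7% of its counts.

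Other genes of the pathway came from 4 lists of 63 genes, of which 62 were tested. After Lkb1 siRNA 0 of 62 passed edgeR's test, and with the block 5 were higher and 5 lower, which is near the shares of all genes with the block (6.59% and 6.99%), so the genes named below are given as values and not as results about their lists. Among 13 eIF2 kinases, phosphatase subunits and their partners, 1 was lower with the block: Ppp1r15a (GADD34), which directs the phosphatase to eIF2, at 53.6, 52.7, 47.9 and 45.0 CPM (log2 fold change -0.19, SE 0.0760; adjusted p = 0.388 in edgeR, 0.0251 with the block). The 4 kinases Eif2ak1 to Eif2ak4 had log2 fold changes between -0.080 and 0.040. Impact and Ppp1cc, with the next smallest p, were at log2 fold changes of 0.19 and 0.12 (edgeR adjusted p = 0.132 and 0.0815 with the block).

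Of 17 initiation cofactors, 2 were higher with the block: Larp4, a poly(A)-binding partner, at 183, 155, 198 and 189 CPM (log2 fold change 0.20, edgeR adjusted p = 0.448; 0.00103 with the block), and Ddx3x, a helicase for structured leaders, at 536, 452, 549.7 and 537 CPM (0.14, edgeR adjusted p = 0.573; 0.0230 with the block). Pabpc1, the main poly(A)-binding protein, had a log2 fold change of -0.11 (edgeR adjusted p = 0.0526 with the block). Of 16 kinases and repressors that act on eIF4 factors, 3 were higher with the block, namely Gigyf1, the partner of eIF4E2 (48.1, 52.0, 56.8 and 67.1 CPM; log2 fold change 0.31, SE 0.0938; adjusted p = 0.308 in edgeR, 4.36e-05 with the block), Rps6kb2, an S6 kinase (0.26; 0.0291 with the block), and Zfp598, a sensor of collided ribosomes (0.19; 0.0170 with the block). Rps6ka3, the kinase RSK2, was lower (-0.17; 0.00974 with the block). Mtor and Rptor were at 0.080 and -0.036.

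Of the elongation and termination factors 12 of 16 were lower, with a median of -0.0670 and 7 of 16 with groups apart below the controls (21.4% of all genes tested); 3 of 16 were lower with the block (6.99% of all genes). Eef1g was at 1168, 1145, 1076 and 1009 CPM (log2 fold change -0.15, SE 0.0643; adjusted p = 0.432 in edgeR, 0.00830 with the block). Eef1b2 and Eef1a1, which with Eef1g belong to the complex that delivers tRNAs to the ribosome, were at -0.13 and -0.11 (edgeR adjusted p = 0.0361 and 0.0114 with the block).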

How the data were processed

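RNA-seq was analysed in 4 libraries. The build GRCm39 and the tools RSEM 1.2.8, Bowtie2 2.2.5 and HISAT2 2.0.4 are named in the submitters' processing notes; their roles and the annotation release are not given in the sources used here. The deposited tables hold, per the file headers, a read count and an FPKM per library. The read counts are expected counts estimated by the authors, since 5.73 to 5.97% of them were fractional. The FPKM are the authors' deposited values per transcript length and depth. Doubled decimal points in 14 gene and 31 transcript values were read as 1. A further 8 per-library columns of each file were not used.

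Counts were rounded and tested with edgeR 4.0.16 (R 4.3.3; quasi-likelihood, robust, TMM, filterByExpr with a minimum count of 10), without a block, with Benjamini-Hochberg adjustment over all 12222 genes and a threshold of 0.05. Procedures were tested on simulated data. limma 3.58.1 on log2(FPKM + 1) and on log2(FPKM + 0.1), and DESeq2 1.42.0, were alternatives, with others for scaling, filters, length trend, block and left-out libraries. The labels give a batch to each library, so the batch numbers pair the libraries: deviations from group means correlated at 0.259 between libraries of the same batch, the principal components held 42.5 and 37.7% of the variance, and the block lowered the common coefficient of variation from 6.39 to 3.15%. Whether cultures were otherwise independent is not stated, so p-values measure the spread between these libraries. The model with batch and treatment leaves 1 residual degree of freedom per gene. Its p-values therefore rest largely on the spread pooled over all genes.

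Members and lists were chosen with earlier results of these data known. Values in every library were planned for genes called with or without the block, the 2 genes of each factor with the smallest p, the highest and lowest, and paralogues. For some of these, such as Eif3h, Eif1ad, Eif5a2 and Eif2s3x, the level is given only as a mean, in part with its range. The 3 genes of each pathway list with the smallest p are named. Other genes named were chosen after their values were seen. Promoters come from RefSeq (GRCm38.p6) and reading frames are the longest from start to stop codon in GENCODE M21 transcripts, aligned globally with Biopython 1.88 in place of proteins. The share of genes called at 50 CPM or more, the within-batch medians and the overlap counts in FPKM were added after seeing the data. The ratios of FPKM were not planned in advance.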

Additional observations from a re-analysis of the deposited data

How the results depend on the processing

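The number of initiation factor genes passing was 0 in 8 alternatives of scaling, filter, tool or length, 7 with the replicate block, 5 with the block and length trend removed together, and 0 to 2 with a library left out. For all genes, 10 passed, against 3 with library size only, 45 with any gene counted at least once, 4 with a mean of at least 5 CPM, 49 with DESeq2, 0 with limma on either FPKM scale, 1660 with the replicate block, 1539 with the block and length trend removed, and 66 to 253 without 1 library. The median of the family ranged from -0.107 to 0.0280 over the left-out libraries; it was -0.0239 with library size only, where all genes had a median of 0.0329, -0.0302 with the length trend removed and -0.0282 with the block besides (all genes 0.00108 and 0.00129), and -0.0138 and -0.0143 with limma on FPKM (all genes 0.0299 and 0.0350). The pathway lists gave 10 calls with the block, with or without the length trend, and 0 to 1 with a library left out. Between batches the 23 calls became 0 without the treatment term and 20 with library size only. Leaving out a library of that fit, which leaves no residual degrees of freedom, gives no test. With a library left out the log2 fold change of Eif5a ran from -0.19 to 0.065, of Eif6 from -0.17 to 0.038 (both positive without control library 1) and of Eif5 from -0.005 (without control library 2) to 0.16. The cause of these changes was not tested. Where 1 library was left out, the lone library of its group is assumed to vary like the other group.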

Other observations

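A pair of the 40 genes with a promoter entry, Eif2s3x and Eif3f, has an annotated start at a C followed by at least 4 pyrimidines, the pattern at the start of mRNAs whose translation follows mTORC1. These are 2 of 40, beside 3.01% of all genes with an entry and 2.87% of those tested, and was searched after the values were seen. The start, with 10 bases before it and the pyrimidine run in capitals, is shown for both, in GRCm38.p6.
Eif2s3x, chrX:94212632-94212661, minus strand: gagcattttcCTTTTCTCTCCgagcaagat
Eif3f, chr7:108934405-108934434, plus strand: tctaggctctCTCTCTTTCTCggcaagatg
Their log2 fold changes after Lkb1 siRNA were 0.004 and -0.094.

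The balance between paralogues, and between Eif2s1 and Eif2b5, which are not paralogues, differed among libraries without following the treatment. Eif5a over Eif5a2 in FPKM was 298 and 215 with control siRNA and 267 and 236 with Lkb1 siRNA, higher in batch 1 under both treatments. Eif1 over Eif1b was 12.1, 13.4, 13.2 and 12.2. Eif2s1 over Eif2b5, the mRNA of the eIF2 subunit that is phosphorylated over that of the catalytic eIF2B subunit, was 1.24, 1.10, 1.24 and 1.23, with the control library of batch 2 the lowest.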
